A study of Mus musculus with 12 samples.

Results

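The genes described here encode the subunits of oxidative phosphorylation and some of its assembly factors. They were chosen by symbol alone, as all genes of the deposited table named Nduf, Sdha to Sdhd, Uqcr, Cox4 to Cox8, Atp5 or for a protein of the mitochondrial genome, with pseudogene symbols left out. This gave 98 of 12151 genes. Of these, 85 lie in nuclear DNA and 13 are the protein genes of the mitochondrial genome. The nuclear members comprise 36 subunits of complex I, 4 of complex II, 8 of complex III, 13 of complex IV, 15 of complex V and 9 assembly factors that share the naming. The rule uses no measured value, but it was set with earlier results of these data known.

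Oxidative phosphorylation takes place in the inner mitochondrial membrane. Complexes I and II pass electrons from NADH and succinate to ubiquinone, complex III passes them on to cytochrome c and complex IV to oxygen. Complexes I, III and IV pump protons as they do so, and complex V, the ATP synthase, uses the proton gradient to make ATP. All but complex II contain subunits from both genomes, so that nuclear and mitochondrial transcripts have to supply parts of the same assemblies. Most of the small accessory subunits surround a few conserved core subunits that carry the redox centers and the proton channels.

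RNA-seq was performed on mouse pre-B cells transformed with the BCR-ABL1 oncogene, a culture model of B cell acute lymphoblastic leukemia. All 12 libraries came from bone marrow of Ctnnb1Ex3fl/+ mice aged 6 to 12 weeks, in which 1 allele of the β-catenin gene has a floxed exon 3. The exon encodes the residues whose phosphorylation marks β-catenin for degradation, so its deletion stabilizes the protein. Cells had received Cas9 ribonucleoproteins with nontargeting guides (WT) or with guides against Ikzf1 and Ikzf3 (KO), the genes of the B-lymphoid transcription factors Ikaros and Aiolos, and colonies were raised from single cells. They then carried a GFP vector for ERT2 (control) or for Cre-ERT2, a Cre recombinase activated by 4-hydroxytamoxifen (4-OHT). The treatment protocol is the same for all 12 libraries, ERT2 controls included, and names 4-OHT. Its wording of day 1 after 4-OHT is for chromatin work. Each of the 4 combinations of vector (ERT2 or Cre-ERT2) and background (WT or KO) had 3 replicates. The labels do not say whether replicates are separate clones or cultures, so that p values measure the spread between these samples only, and in the KO comparisons editing and clone cannot be told apart. The difference of Cre-ERT2 from ERT2 libraries is called the β-catenin effect below. In it, stabilized β-catenin and other effects of active Cre cannot be told apart.

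All values are the authors' normalized log2 values, and a change is a difference of group means on that scale. Sequencing depth is unknown. A gene was called at a limma adjusted p under 0.05, with adjustment over all 12151 genes. Library medians ran from 9.06 to 9.11. Of 13 B-lineage precursor markers, 13 were in the table, against 2 of 10 myeloid (Lyz2 and Itgam), 2 of 9 T cell (Lck and Cd5), 0 of 7 erythroid and 0 of 6 stromal markers. The pairs of myeloid and T cell markers present were at low levels and moved between groups. The summed share of the unlogged values for the myeloid pair was 0.000798 to 0.000845% in WT and 0.00151 to 0.00186% in KO libraries. That of the T cell pair was 0.00237 to 0.00247% in ERT2 WT and 0.00397 to 0.00424% in Cre-ERT2 WT libraries, against 0.00122 to 0.00123% and 0.00187 to 0.00191% in the KO libraries of these vectors. Ikzf3 was lower in the libraries labelled KO (10.97 to 11.34, against 11.59 to 11.93), but Ikzf1 was not (14.56 to 14.76, against 13.66 to 13.75), and edited transcripts cannot be recognized in values summed per gene. Ctnnb1 ran from 12.43 to 12.46 in ERT2 WT and from 12.50 to 12.53 in Cre-ERT2 WT libraries, and from 12.57 to 12.66 and from 12.73 to 12.78 in the corresponding KO libraries. Whether exon 3 was lost cannot be seen in a value for the whole gene.

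**Figure D1:**
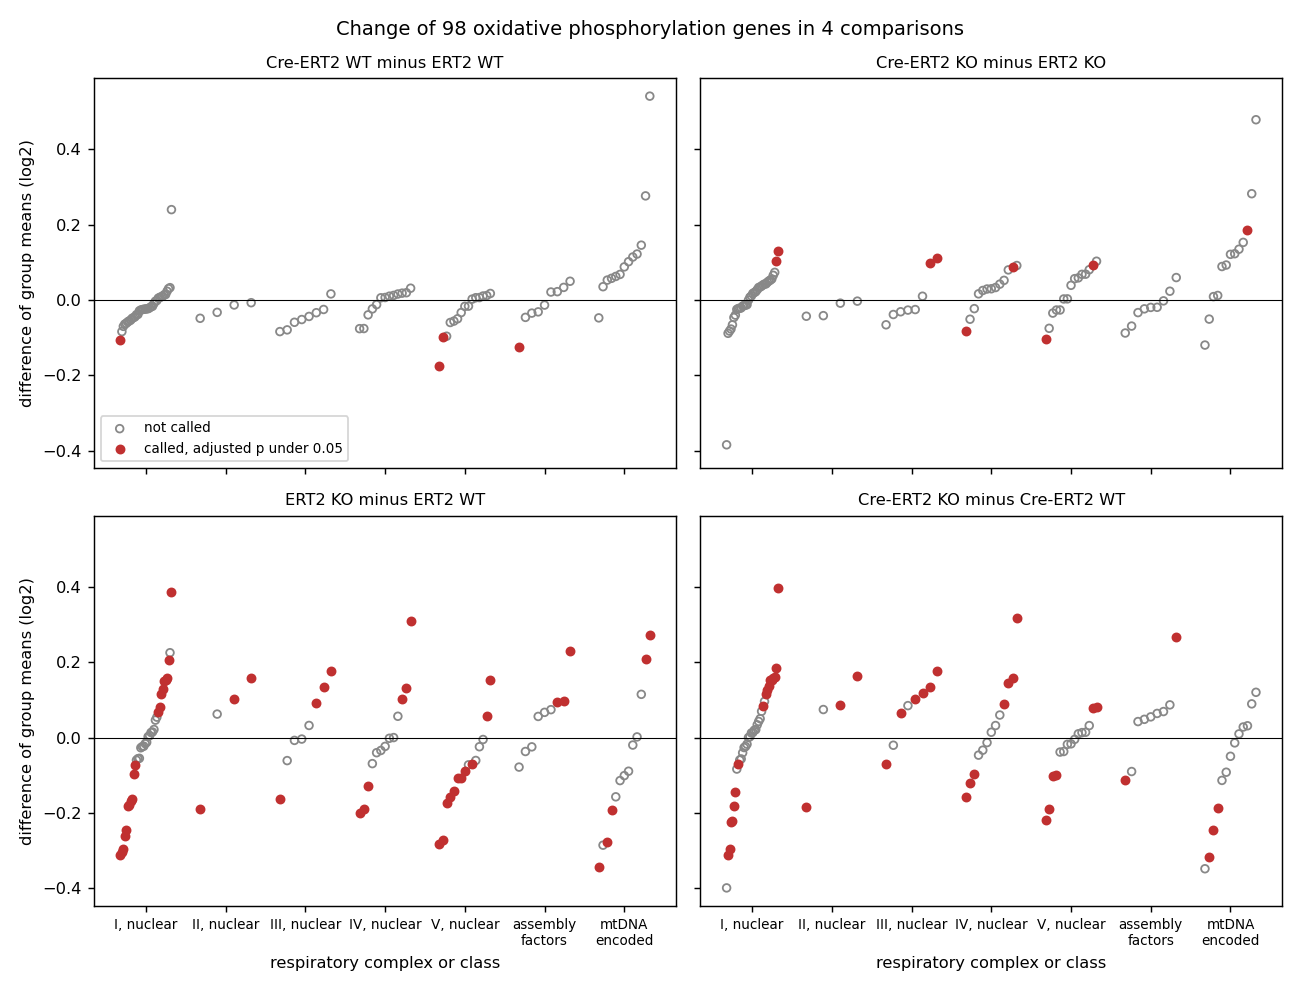
Change of each of the 98 genes (log2 difference of group means, vertical axis) in 4 comparisons, sorted by size within each complex, with filled points for called genes. The 2 comparisons of Cre-ERT2 with ERT2 hold 4 and 9 called genes, and the 2 comparisons of KO with WT hold 52 and 44 on both sides of the zero line.

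The first comparison asked which of these genes responded to stabilized β-catenin with Ikaros factors present. In WT cells 4 of the 98 genes were called, all lower upon Cre activation, where 11.9% of all genes were called (5.93% higher and 5.95% lower). None of the 4 changed by 0.2 or more, as 3.13% of all genes did. In the same comparison 8 of the 13 B-lineage markers were called (2 higher and 6 lower) and both T cell markers were higher (Lck by 0.81 and Cd5 by 0.51). The part of these markers was not tested. The 4 genes belong to complex V (Atp5g1 and Atp5d), to complex I (Ndufb6) and to the complex I assembly factors (Ndufaf6). The largest fall was that of Atp5g1, 1 of 3 genes for the identical mature subunit c of the proton-carrying ring. Its values were 11.21, 11.11 and 11.14 in ERT2 WT libraries and 10.97, 10.98 and 10.98 in Cre-ERT2 WT libraries. The groups did not overlap, and Atp5g1 fell by 0.17 (SE 0.039, limma adjusted p 0.0118). Atp5g3, which encodes the same subunit, differed by -0.10 without being called, and Atp5g2 by 0.02.

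Ndufaf6 had values of 7.41, 7.36 and 7.43 in ERT2 WT libraries and 7.27, 7.28 and 7.28 in Cre-ERT2 WT libraries, and fell by 0.13 (SE 0.027, limma adjusted p 0.00822). Ndufb6, an accessory subunit of the membrane arm, fell by 0.11 (SE 0.026, limma adjusted p 0.0184). Atp5d, the δ subunit of the central stalk of F1, fell by 0.10 (SE 0.028, limma adjusted p 0.0394). Of these, Ndufaf6 was called in every fit that left out 1 library. Without ERT2 WT replicate 1 it was the 1 gene called, Atp5g1 at -0.15 (limma adjusted p 0.0560), Ndufb6 at -0.09 and Atp5d at -0.08. Without Cre-ERT2 WT replicate 3, 2 genes were called, and without Cre-ERT2 KO replicate 3, which is no part of the comparison but of the shared spread, 7.

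Among the 81 nuclear members that were not called, the widest change was that of Ndufa9, a complex I subunit, at 0.24, wider than those of the 4 called genes. The median over the 85 nuclear members was -0.02, and over all 12151 genes 2.18e-05. All 3 values of 1 group lay beyond all 3 of the other in 23 of the 98 members (3 higher and 20 lower), against 31.1% of all genes (15.2% higher and 15.9% lower). No mitochondrial gene was called. When the mitochondrial genes were centered on their library mean, mt-Nd2 was called at -0.09 (limma adjusted p 0.0411), against 0.04 without centering. The mitochondrial members had the widest changes, led by mt-Nd3 at 0.54 and mt-Atp6 at 0.28, and these are taken up with their copies on chromosome 1.

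In KO cells 9 members were called upon Cre activation, 7 higher and 2 lower (6 and 4 after median centering of the libraries), where 12.6% of all genes were called (7.27% higher and 5.33% lower). None of the 9 changed by 0.2 or more, as 3.35% of all genes did. Of the B-lineage markers 8 were called here too (2 higher and 6 lower), with Cd5 higher by 1.02, Lck by 0.33 and Lyz2 by 0.21, and their part was again not tested. The 7 were mt-Nd4l, Ndufs6, Uqcrh, Ndufb2, Uqcrb, Atp5h and Cox7a2l, which spread over complexes I, III, IV and V. The call for mt-Nd4l, at 0.19, ended when the mitochondrial genes were centered on their library mean (0.07, limma adjusted p 0.564). The 2 lower genes were Atp5b, the catalytic β subunit of ATP synthase, and Cox5a, an accessory subunit of cytochrome c oxidase. The 9 genes and the 4 called in WT cells had none in common, but Ndufaf6 differed in KO cells by -0.09 (limma adjusted p 0.0505) and Cox5a in WT cells by -0.08 (limma adjusted p 0.0515), both just short of a call. The comparisons in WT and in KO cells share no libraries.

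Ndufs6, a zinc-binding accessory subunit of complex I, had values of 10.27, 10.28 and 10.23 in ERT2 KO libraries and 10.34, 10.43 and 10.39 in Cre-ERT2 KO libraries. It rose by 0.13 (SE 0.029, limma adjusted p 0.0103). Uqcrh, the hinge protein through which cytochrome c1 meets cytochrome c, had values of 11.61, 11.62 and 11.62 in ERT2 KO and 11.70, 11.76 and 11.72 in Cre-ERT2 KO libraries, and rose by 0.11 (SE 0.024, limma adjusted p 0.00926). For both genes the groups did not overlap. Atp5b had values of 15.23, 15.27 and 15.22 in ERT2 KO and 15.12, 15.16 and 15.12 in Cre-ERT2 KO libraries and fell by 0.10 (SE 0.020, limma adjusted p 0.00400). These 3 genes stayed called in every fit that left out 1 library, so that the lowest count, without ERT2 KO replicate 2, was 3 genes.

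The 6 other calls were less stable. Without ERT2 KO replicate 2, mt-Nd4l changed by 0.14 (limma adjusted p 0.123), Uqcrb by 0.09, Cox7a2l by 0.08, Atp5h by 0.09, Ndufb2 by 0.11 and Cox5a by -0.07, none of them called. Over the 12 fits that left out 1 library, the call was lost in 10 for Ndufb2, 6 for Cox5a, 5 for Atp5h, 4 for mt-Nd4l and Cox7a2l and 3 for Uqcrb. A fit without ERT2 KO replicate 3 and a fit without Cre-ERT2 KO replicate 3 each left 4 of the 98 members called, and a fit to the 6 KO libraries alone left 3. Groups did not overlap in 25 members (16 higher and 9 lower), against 28.3% of all genes (14.5% higher and 13.9% lower). The median change of the 85 nuclear members was 0.0076.

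A test of the difference between the β-catenin effects in KO and WT cells called 1 of the 98 members, Uqcrb (ENSMUSG00000021520, GRCm38 chromosome 13, 66900617 to 66905378, minus strand), where 4.53% of all genes were called (2.71% higher and 1.82% lower, and 2.37% with a difference of at least 0.2). Uqcrb encodes a small matrix-side subunit of complex III. Its values were 10.18, 10.12 and 10.12 in ERT2 WT, 10.10, 10.09 and 10.10 in Cre-ERT2 WT, 10.15, 10.11 and 10.14 in ERT2 KO and 10.21, 10.23 and 10.25 in Cre-ERT2 KO libraries. The Cre-ERT2 KO libraries were thus the highest, and the other 3 groups lay close together. The effects differed by 0.14 (SE 0.035, limma adjusted p 0.0393). The call was kept without ERT2 WT replicate 2 (0.15) or Cre-ERT2 KO replicate 1 (0.15) and lost without any of the other 10 libraries, with differences of 0.12 to 0.15 (limma adjusted p 0.0523 to 0.0983), and no member was called after median centering (limma adjusted p 0.0513). The genome holds 3 near-identical processed copies of Uqcrb, none of them in the table. Next came mt-Nd4l with a difference of 0.23 (limma adjusted p 0.0981) and Cox8a, a small subunit of complex IV, with 0.17 (limma adjusted p 0.135).

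The comparison of KO with WT cells gave many more calls, as it did over all genes. In ERT2 libraries 52 of the 98 members were called, 24 higher and 28 lower in KO (18 and 36 when libraries were centered on their median), where 59.0% of all genes were called (29.8% higher and 29.3% lower). With the Cre-ERT2 vector 44 members were called, of which 24 rose and 20 fell in KO (20 and 28 when centered), where 58.9% of all genes were called (30.4% higher and 28.6% lower). Changes of at least 0.2 were called in 16 and in 10 members, against 28.5% and 28.6% of all genes. Groups did not overlap in 56 members (25 higher and 31 lower) in ERT2 and in 53 (30 higher and 23 lower) in Cre-ERT2 libraries, against 65.5% and 63.6% of all genes. B-lineage markers moved with the same groups. Their summed share of the unlogged values was 0.550 to 0.568% in WT and 0.411 to 0.433% in KO libraries, with 11 of the 13 markers called in ERT2 (2 higher and 9 lower) and 12 in Cre-ERT2 libraries (2 higher and 10 lower). In KO cells Lyz2 was higher by 0.99 and 1.23, and Lck differed by -1.45 and -1.93, in ERT2 and Cre-ERT2 cells respectively. The part of these markers in the changes below was not tested.

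The KO comparisons in ERT2 and in Cre-ERT2 cells share no libraries. In both, 36 members were called with the same direction (19 higher and 17 lower) and 0 with opposite directions. That is 69.2% of the members called in ERT2 and 81.8% of those called in Cre-ERT2 libraries, where over all genes 5956 shared calls made up 83.0% and 83.2%. Centering the libraries lowered the median change of all genes by 0.03 in both comparisons, and no called member changed sign under that or any other alternative.

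The largest rise in both was that of Ndufv3 (ENSMUSG00000024038, GRCm38 chromosome 17, 31520115 to 31531331, plus strand), an accessory subunit bound to the NADH-oxidizing flavoproteins at the tip of complex I. It had values of 10.43, 10.51 and 10.43 in ERT2 WT and 10.78, 10.83 and 10.92 in ERT2 KO libraries, and of 10.48, 10.51 and 10.48 in Cre-ERT2 WT and 10.83, 10.88 and 10.94 in Cre-ERT2 KO libraries. No WT value reached a KO value. Ndufv3 rose by 0.39 (SE 0.038, limma adjusted p 2.16e-06) in ERT2 and by 0.40 (SE 0.038, limma adjusted p 1.56e-06) in Cre-ERT2 cells, or by 30.6% and 31.7% on the unlogged scale.

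Of the 7 core subunits of complex I from nuclear DNA, 4 rose and 0 fell in ERT2 cells and 4 rose and 1 fell in Cre-ERT2 cells. Among those outside the rule for names, given here after their values were seen, Ndufs1, which carries iron-sulfur clusters, rose by 0.20 and 0.15, Ndufv1, the NADH-binding flavoprotein, by 0.13 and 0.16, and Ndufv2 by 0.07 and 0.13, in ERT2 and Cre-ERT2 cells respectively. Ndufs8, another iron-sulfur subunit, fell by 0.15 in Cre-ERT2 cells. For comparison, 29.8% of all genes were called higher and 29.3% lower in ERT2, and 30.4% and 28.6% in Cre-ERT2 cells.

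The 29 accessory subunits went both ways, with 5 called higher and 11 lower in ERT2 and 6 and 6 in Cre-ERT2 cells (5 and 11 when libraries were centered). Among called accessory subunits, the largest falls were those of Ndufa1 and Ndufa11, which anchor to the membrane arm, and of Ndufb7 and Ndufb11 in its distal part. Ndufa9 differed by -0.40 in Cre-ERT2 cells without being called. Ndufa1 (ENSMUSG00000016427, GRCm38 chromosome X, 37187588 to 37191163, minus strand) had values of 9.73, 9.69 and 9.75 in ERT2 WT, 9.74, 9.75 and 9.77 in Cre-ERT2 WT, 9.40, 9.43 and 9.39 in ERT2 KO and 9.40, 9.50 and 9.42 in Cre-ERT2 KO libraries. It fell by 0.31 in both vectors (SE 0.030, limma adjusted p 1.42e-06 and 1.40e-06), with WT and KO values fully apart. Ndufa11 had values of 9.68, 9.70 and 9.58 in ERT2 WT and 9.28, 9.39 and 9.40 in ERT2 KO libraries and fell by 0.30 in both vectors (SE 0.039). Ndufb7 fell by 0.31 and 0.22, and Ndufb11 by 0.26 and 0.22.

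**Figure D2:**
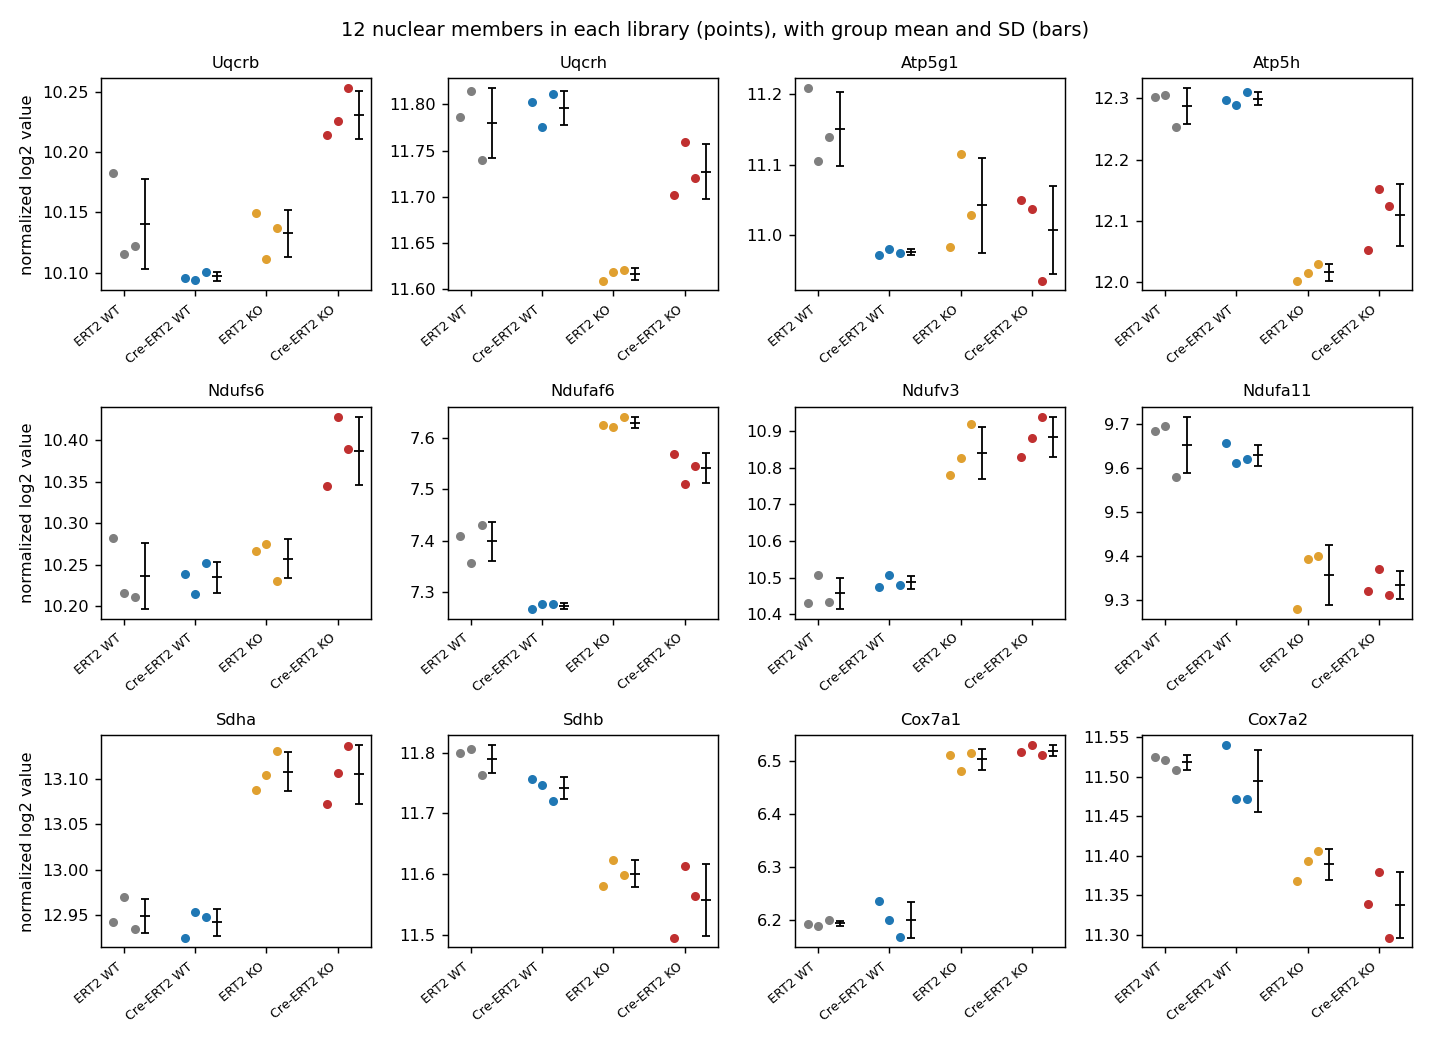
Normalized log2 values of 12 nuclear members in each library (points, 3 per group), with group means and SD (bars). Ndufv3, Ndufaf6, Sdha and Cox7a1 lie higher and Ndufa11, Atp5h, Sdhb and Cox7a2 lower in both KO groups, while Uqcrb stands out in the Cre-ERT2 KO group alone.

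In complex II, or succinate dehydrogenase, the catalytic subunits parted. Sdha, the flavoprotein that oxidizes succinate, had values of 12.94, 12.97 and 12.94 in ERT2 WT and 13.09, 13.10 and 13.13 in ERT2 KO libraries, and of 12.93, 12.95 and 12.95 in Cre-ERT2 WT and 13.07, 13.11 and 13.14 in Cre-ERT2 KO libraries. It rose by 0.16 in both vectors (SE 0.022, limma adjusted p 3.85e-05 and 3.02e-05). Sdhb, the iron-sulfur subunit bound to Sdha, had values of 11.80, 11.81 and 11.76 in ERT2 WT and 11.58, 11.62 and 11.60 in ERT2 KO libraries, and of 11.76, 11.75 and 11.72 in Cre-ERT2 WT and 11.50, 11.61 and 11.56 in Cre-ERT2 KO libraries. It fell by 0.19 and 0.18 (SE 0.029, limma adjusted p 9.54e-05 and 0.000122). Neither gene overlapped between WT and KO libraries, and their directions held under each scaling. The membrane anchors were called in 1 vector each, Sdhc at 0.10 in ERT2 (limma adjusted p 0.0191) and Sdhd at 0.09 in Cre-ERT2 cells (limma adjusted p 0.0192). Sdhc lost the call without ERT2 WT replicate 1 or 3 or ERT2 KO replicate 1 (0.08 to 0.10), and Sdhd without replicate 2 of Cre-ERT2 WT or Cre-ERT2 KO (0.07 in each).

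Of the 8 nuclear subunits of complex III, 3 rose and 1 fell in ERT2 and 5 rose and 1 fell in Cre-ERT2 cells. Over all genes 59.0% and 58.9% were called. Uqcrc2, a core protein on the matrix side, had values of 12.18, 12.20 and 12.21 in ERT2 WT and 12.38, 12.41 and 12.33 in ERT2 KO libraries. It rose by 0.18 in both vectors (SE 0.028, limma adjusted p 0.000133 in each). Uqcrh fell by 0.16 in ERT2 (SE 0.024, limma adjusted p 7.15e-05) and by 0.07 in Cre-ERT2 cells (limma adjusted p 0.0256). The smaller of these was lost without replicate 1 or 3 of Cre-ERT2 WT or of Cre-ERT2 KO, with values between -0.07 and -0.06. Uqcrb was called in Cre-ERT2 cells only, at 0.13 (limma adjusted p 0.000439), and its change between the vectors is the difference described above.

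The 13 nuclear subunits of complex IV included a set of paralogs that moved apart. Cox7a1, known as the isoform of heart and skeletal muscle, had values of 6.19, 6.19 and 6.20 in ERT2 WT, 6.24, 6.20 and 6.17 in Cre-ERT2 WT, 6.51, 6.48 and 6.52 in ERT2 KO and 6.52, 6.53 and 6.51 in Cre-ERT2 KO libraries. It rose by 0.31 and 0.32 (SE 0.022, limma adjusted p 1.01e-07 and 7.20e-08). Cox7a2, the isoform of most other tissues, had values of 11.53, 11.52 and 11.51 in ERT2 WT and 11.37, 11.39 and 11.41 in ERT2 KO libraries, again without overlap. It fell by 0.13 and 0.16 (SE 0.027, limma adjusted p 0.00111 and 0.000248). Cox7a2l, which helps join complexes III and IV into supercomplexes, rose by 0.10 and 0.16 (SE 0.022, limma adjusted p 0.00152 and 4.40e-05). The fall of Cox7a2 and the rises of its paralogs held in both vectors and under each scaling. Cox6a1 fell by 0.19 and 0.12, and Cox8a by 0.20 in ERT2 cells. Cox4i1 and Cox6b1 were not called in any comparison, with Cox4i1 between 12.57 and 12.65 in all libraries. Ndufa4, now placed in complex IV, had a mean of 3.70 and was not called either.

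In complex V the 5 subunits of the catalytic F1 part and the 10 of the membrane part and stalk (Fo) were counted separately. Of the 10, 0 rose in either vector, while 8 fell in ERT2 and 3 in Cre-ERT2 cells. After median centering 8 and 4 fell, and after quantile normalization 4 and 2. Without either, 29.3% and 28.6% of all genes were called lower and 29.8% and 30.4% higher. Atp5h, subunit d of the peripheral stalk, had values of 12.30, 12.31 and 12.25 in ERT2 WT and 12.00, 12.01 and 12.03 in ERT2 KO libraries. It fell by 0.27 in ERT2 (SE 0.026, limma adjusted p 1.58e-06) and by 0.19 in Cre-ERT2 cells (limma adjusted p 4.17e-05). The ring genes Atp5g1 and Atp5g3 fell by 0.11 and 0.09 in ERT2 cells, but Atp5g1 was not called without replicate 1 or 3 of ERT2 WT or ERT2 KO (-0.11 to -0.08), nor Atp5g3 without ERT2 WT replicate 1 or ERT2 KO replicate 3 (-0.08 in each). In F1, Atp5b rose by 0.15 and 0.08 (limma adjusted p 2.30e-05 and 0.00297), whereas Atp5e, the ε subunit, fell by 0.28 and 0.22 (limma adjusted p 0.000250 and 0.00162). Its values were 11.38, 11.32 and 11.35 in ERT2 WT and 11.02, 11.08 and 11.10 in ERT2 KO libraries.

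Among the 9 assembly factors 3 were higher and 0 lower in ERT2 and 1 was higher and 1 lower in Cre-ERT2 cells. The shares called over all genes were 59.0% and 58.9%. Ndufaf6 had values of 7.63, 7.62 and 7.64 in ERT2 KO and 7.57, 7.51 and 7.55 in Cre-ERT2 KO libraries, all above its WT values given above. It rose by 0.23 and 0.27 (SE 0.027, limma adjusted p 8.57e-06 and 2.04e-06). Ndufaf4 fell by 0.11 in Cre-ERT2 cells (SE 0.041, limma adjusted p 0.0319), a call that was lost without replicate 2 or 3 of Cre-ERT2 WT or replicate 1 or 3 of Cre-ERT2 KO (-0.11 to -0.09).

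The direction of the KO change went with the length of the coding sequence. Coding lengths were taken from GENCODE vM21, and members were divided at 600 nucleotides, a limit set after the values were seen. Of the 59 shorter nuclear members, 7 were higher and 23 lower in ERT2 KO cells, with a median change of -0.06. Of the 26 longer ones, 15 were higher and 2 lower, with a median of 0.09. The other 10812 genes with a known coding length showed the same order with a smaller gap, with medians of -0.02 below and 0.0064 above the limit (343 higher and 518 lower of 1458, and 3061 and 2848 of 9354). In Cre-ERT2 cells the shorter members had 11 higher and 15 lower and the longer ones 13 and 2, with medians of -0.02 and 0.08. Of all genes of any length, 30.4% were called higher and 28.6% lower in that comparison. The split stood when libraries were centered (5 and 30 of the shorter, 11 and 2 of the longer in ERT2 cells) and when a trend with coding length and GC content was removed from each library (10 and 21, and 14 and 2). With centered libraries 2866 of all 12151 genes were called higher and 4747 lower in ERT2 cells.

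Across the 85 nuclear members the rank correlation (Spearman's rho) of coding length with the KO change was 0.44 in ERT2 and 0.30 in Cre-ERT2 cells, against 0.06 and 0.03 across the 10812 other genes. For the β-catenin effect it was -0.14 in WT and -0.48 in KO cells, against 0.08 and 0.0093 across the other genes. These are correlations across genes of the same libraries, and genes are not independent replicates. ERT2 KO libraries enter both the KO comparison and the β-catenin effect in KO cells with opposite sign. Members called higher in ERT2 KO cells had a median coding length of 994.5 nucleotides, and those called lower one of 408. Cox7a1, with 240 coding nucleotides, stood out among the short members by its rise and Sdhb, with 846, among the long ones by its fall. Length also went with subunit class. The nuclear core subunits of complex I had 636 to 2181 coding nucleotides, and the nuclear Fo subunits of complex V 213 to 768. Fragment lengths and transcript integrity of the libraries are unknown, and their part in the pattern was not tested, nor was that of class.

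**Figure D3:**
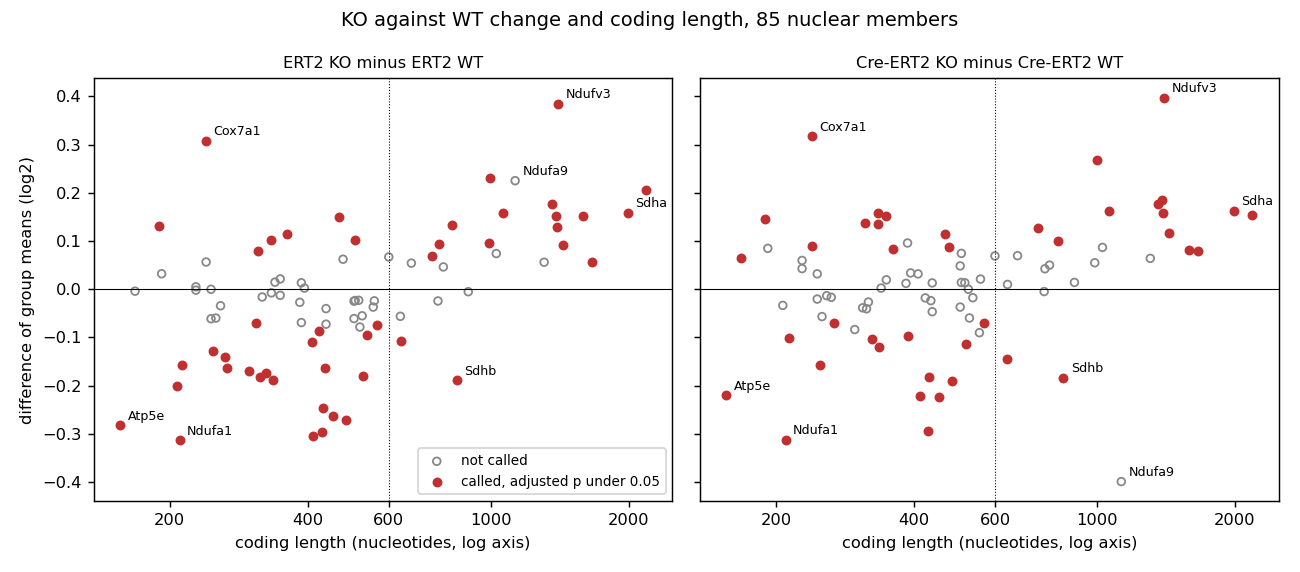
KO against WT change (log2 difference of group means) of the 85 nuclear members against coding length (nucleotides, log axis) in ERT2 and Cre-ERT2 libraries, with filled points for called genes and a dotted line at 600. Left of the line 23 and 15 genes were called lower, and right of it 15 and 13 were called higher.

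The mitochondrial genome supplies 7 subunits of complex I, 1 of complex III, 3 of complex IV and 2 of complex V, and its genes are copied from long shared transcripts that are cut into single RNAs. The 13 genes took up 5.33, 5.43 and 4.34% of the summed unlogged values in ERT2 WT libraries and 5.04, 5.70 and 5.24% in Cre-ERT2 WT libraries. In ERT2 KO libraries the shares were 5.46, 4.91 and 5.07%, and in Cre-ERT2 KO libraries 5.01, 5.04 and 5.81%. The group means of 5.03 ± 0.601%, 5.33 ± 0.342%, 5.15 ± 0.281% and 5.29 ± 0.454% (SD, n = 3) lay within each other's spread. Single libraries moved as a whole. ERT2 WT replicate 3 was the lowest of its group in 11 of the 13 genes, Cre-ERT2 WT replicate 2 the highest in 12, and ERT2 KO replicate 1 and Cre-ERT2 KO replicate 3 the highest in 13.

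While the summed share did not separate the groups, single mitochondrial genes went different ways in KO cells. In ERT2 libraries mt-Nd1, mt-Nd2 and mt-Cytb were called lower and mt-Co1 and mt-Nd6 higher. In Cre-ERT2 libraries mt-Nd1, mt-Nd2 and mt-Cytb were again called lower, and 0 genes higher. Of the 13 genes, 5 and 3 calls correspond to 38.5% and 23.1%, below the 59.0% and 58.9% of all genes.

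The complex I gene mt-Nd2 (mitochondrial genome 3914 to 4951) had values of 15.83, 15.90 and 15.58 in ERT2 WT and 15.57, 15.30 and 15.41 in ERT2 KO libraries. It fell by 0.35 (SE 0.093, limma adjusted p 0.00645), and by 0.25 in Cre-ERT2 cells (limma adjusted p 0.0375). The groups came close in ERT2 cells, where the lowest WT library was ERT2 WT replicate 3. Its neighbor mt-Nd1 (2751 to 3707) had values of 17.09, 17.15 and 16.76 in ERT2 WT, 16.84, 16.65 and 16.68 in ERT2 KO, 16.98, 17.13 and 17.05 in Cre-ERT2 WT and 16.70, 16.66 and 16.84 in Cre-ERT2 KO libraries. The values overlapped in ERT2 and not in Cre-ERT2 cells, with falls of 0.28 (SE 0.088, limma adjusted p 0.0162) and 0.32 (SE 0.088, limma adjusted p 0.00751). The call for mt-Nd1 in ERT2 cells was lost without replicate 1 or 2 of ERT2 WT or replicate 2 or 3 of ERT2 KO, with changes of -0.25 to -0.20 (limma adjusted p 0.0542 to 0.0752). That for mt-Nd2 in Cre-ERT2 cells was lost without replicate 2 or 3 of Cre-ERT2 WT or replicate 1 or 2 of Cre-ERT2 KO (-0.26 to -0.19, limma adjusted p 0.0606 to 0.136). Each held in all 12 such fits in the other vector.

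The fall of mt-Cytb, the cytochrome b of complex III, was 0.19 in both vectors (limma adjusted p 0.0428 and 0.0477) and was called in 6 and in 4 of the 12 fits that left out 1 library. Where the call was lost the change ran from -0.19 (without Cre-ERT2 WT replicate 3) to -0.12 (without ERT2 WT replicate 2) in ERT2 and from -0.21 (without Cre-ERT2 KO replicate 3) to -0.16 (without Cre-ERT2 WT replicate 2) in Cre-ERT2 cells. The rise of mt-Co1, the catalytic subunit of complex IV, was 0.21 in ERT2 cells (limma adjusted p 0.0232) and 0.10 without ERT2 WT replicate 3 (limma adjusted p 0.0545) and 0.18 without ERT2 KO replicate 1 (limma adjusted p 0.0808). In contrast mt-Nd6, which lies on the strand opposite to the other 12 genes, rose by 0.27 in ERT2 cells (SE 0.076, limma adjusted p 0.00802) and was called in all 12 fits. Its values were 11.50, 11.58 and 11.55 in ERT2 WT and 11.94, 11.76 and 11.75 in ERT2 KO libraries. In Cre-ERT2 cells mt-Nd6 differed by 0.03, with wide overlap. Genes that overlap may share reads. On the same strand, mt-Atp8 overlaps mt-Atp6 (7927 to 7969) and mt-Nd4l overlaps mt-Nd4 (10167 to 10173). For mt-Nd5 and the antisense mt-Nd6 (13552 to 13565) this depends on the use of strand in the counting, which is not stated.

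To set aside the level of each library, the 13 genes were also centered on their library mean. Relative to that mean, mt-Nd1 fell by 0.20 and 0.23 and mt-Nd2 by 0.27 and 0.16 in ERT2 and Cre-ERT2 cells, and mt-Co1 rose by 0.28 and 0.17, all called. In ERT2 cells mt-Nd6 rose by 0.35 (limma adjusted p 0.00902), mt-Co3 by 0.19 and mt-Nd4 fell by 0.08, and in Cre-ERT2 cells mt-Nd4l rose by 0.20 (limma adjusted p 0.0180). The call for mt-Cytb was lost. Within the mitochondrial transcripts, the proportions thus differed between KO and WT libraries for several genes. Centering ties the genes together, so that falls of some raise the rest. Without it, mt-Co3 in ERT2 cells (0.11) and mt-Co1 in Cre-ERT2 cells (0.09) were not called. The library mean also includes the genes with chromosome 1 copies described below. The ribosomal RNA genes mt-Rnr1 and mt-Rnr2, which precede mt-Nd1 on the same transcript and are only in part retained by polyA selection, fell by 0.48 and 0.57 in ERT2 and by 0.67 and 0.83 in Cre-ERT2 cells.

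**Figure D4:**
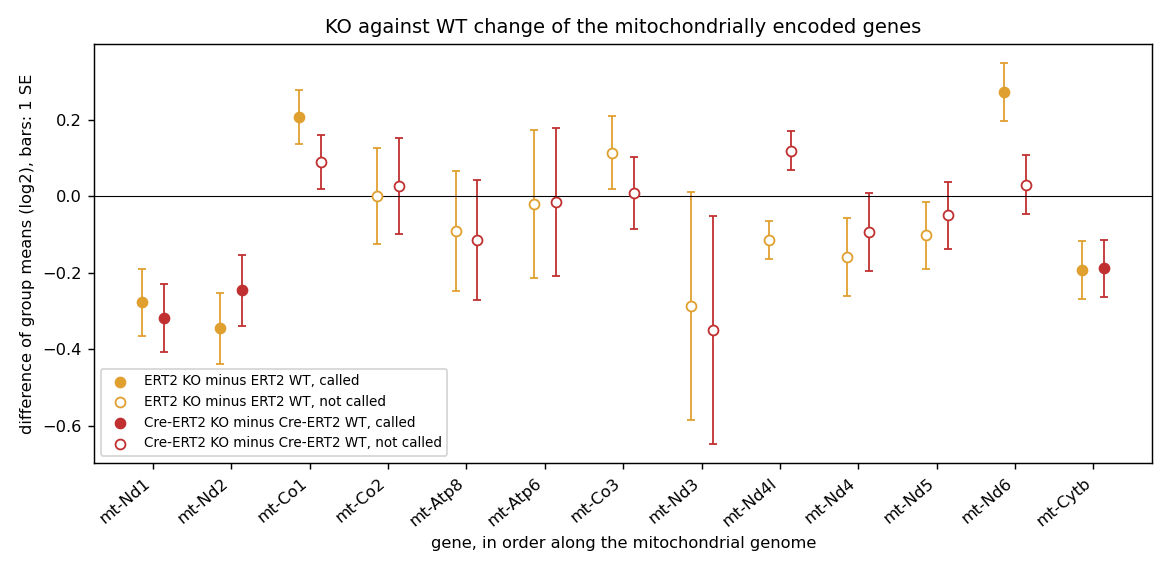
KO against WT change (log2 difference of group means, bars of 1 SE) of the 13 mitochondrial protein genes in their order along the genome, for ERT2 and Cre-ERT2 libraries, with filled points for called genes. The genes mt-Nd1, mt-Nd2 and mt-Cytb were called lower in both, and mt-Co1 and mt-Nd6 were called higher in ERT2 libraries.

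Nuclear copies limit what can be read from some mitochondrial members. On chromosome 1 of GRCm38, minus strand, the genes Gm28438 (24612775 to 24613119), Gm28437 (24613189 to 24613971), Gm10925 (24613974 to 24614651) and Gm28661 (24614885 to 24615565) lie next to each other. They match mt-Nd3, mt-Co3, mt-Atp6 and mt-Co2, in this order, the last 3 with 100% identity over the aligned coding sequence. Over 345 nucleotides mt-Nd3 and Gm28438 differ at 1 position, T3C, counted from 1 at the start of the coding sequence, with the base of mt-Nd3 first. The first 33 nucleotides of both are shown, since reads that do not cover the position in capitals cannot be assigned to either gene. Those of mt-Nd3 span chrM:9459-9491 (plus strand) and those of Gm28438 chr1:24613087-24613119 (minus strand), in GRCm38.
mt-Nd3: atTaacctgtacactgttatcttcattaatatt
Gm28438: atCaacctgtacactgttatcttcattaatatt

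In 2 libraries the deposited values of mt-Atp6 and its copy moved in opposite directions, but not every pair of member and copy followed this throughout. The gene mt-Nd3 had values of 12.16, 12.07 and 12.08 in ERT2 WT, 12.33, 13.00 and 12.61 in Cre-ERT2 WT, 12.10, 11.58 and 11.77 in ERT2 KO and 11.80, 11.89 and 13.20 in Cre-ERT2 KO libraries. The highest values were those of Cre-ERT2 KO replicate 3 and Cre-ERT2 WT replicate 2. Gm28438, the copy of mt-Nd3, read 12.67 in both, within a range of 12.66 to 13.19. Its lowest value was that of ERT2 KO replicate 2, where mt-Nd3 was lowest as well. In Cre-ERT2 KO replicate 3 and Cre-ERT2 WT replicate 2, Gm10925, the copy of mt-Atp6, was the lowest, at 13.43 and 14.19. It read 14.88 to 15.71 in the other 10 libraries. In the same 2 libraries mt-Atp6 was the highest, at 16.83 and 16.74. The same 2 libraries had the lowest values of Gm28437, at 10.21 and 8.20. The lowest values of Gm28661, the copy of mt-Co2, were 12.91 in Cre-ERT2 WT replicate 2 and 13.28 in ERT2 WT replicate 1.

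When member and copy were summed on the unlogged scale, the wide β-catenin changes shrank. That of mt-Atp6 went from 0.28 to 0.0097 in WT and from 0.28 to 0.02 in KO cells, and that of mt-Nd3 from 0.54 to 0.03 in WT and from 0.48 to 0.29 in KO cells, none of them called before or after. Without Cre-ERT2 WT replicate 2 and Cre-ERT2 KO replicate 3, mt-Nd3 alone changed by 0.36 in WT and by 0.03 in KO cells. In KO against WT cells the sum of mt-Nd3 and its copy fell by 0.33 in ERT2 libraries (limma adjusted p 0.0309). In Cre-ERT2 libraries it differed by -0.08 and was not called (limma adjusted p 0.595). The sums and the removal of the 2 libraries were chosen after the data were seen. In all, 28 of the 98 members have a near-identical copy in the genome, and for 11 a copy is in the table. Among nuclear members, Atp5g2 had a mean of 8.97 and its copy Gm10175, 100% identical over the aligned 438 nucleotides, lay between 11.84 and 12.06, so that values of Atp5g2 are uncertain. Of the 63 nuclear members without such a copy, 18 were higher and 18 lower in ERT2 and 16 and 13 in Cre-ERT2 KO cells. Among all genes 59.0% and 58.9% were called.

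**Figure D5:**
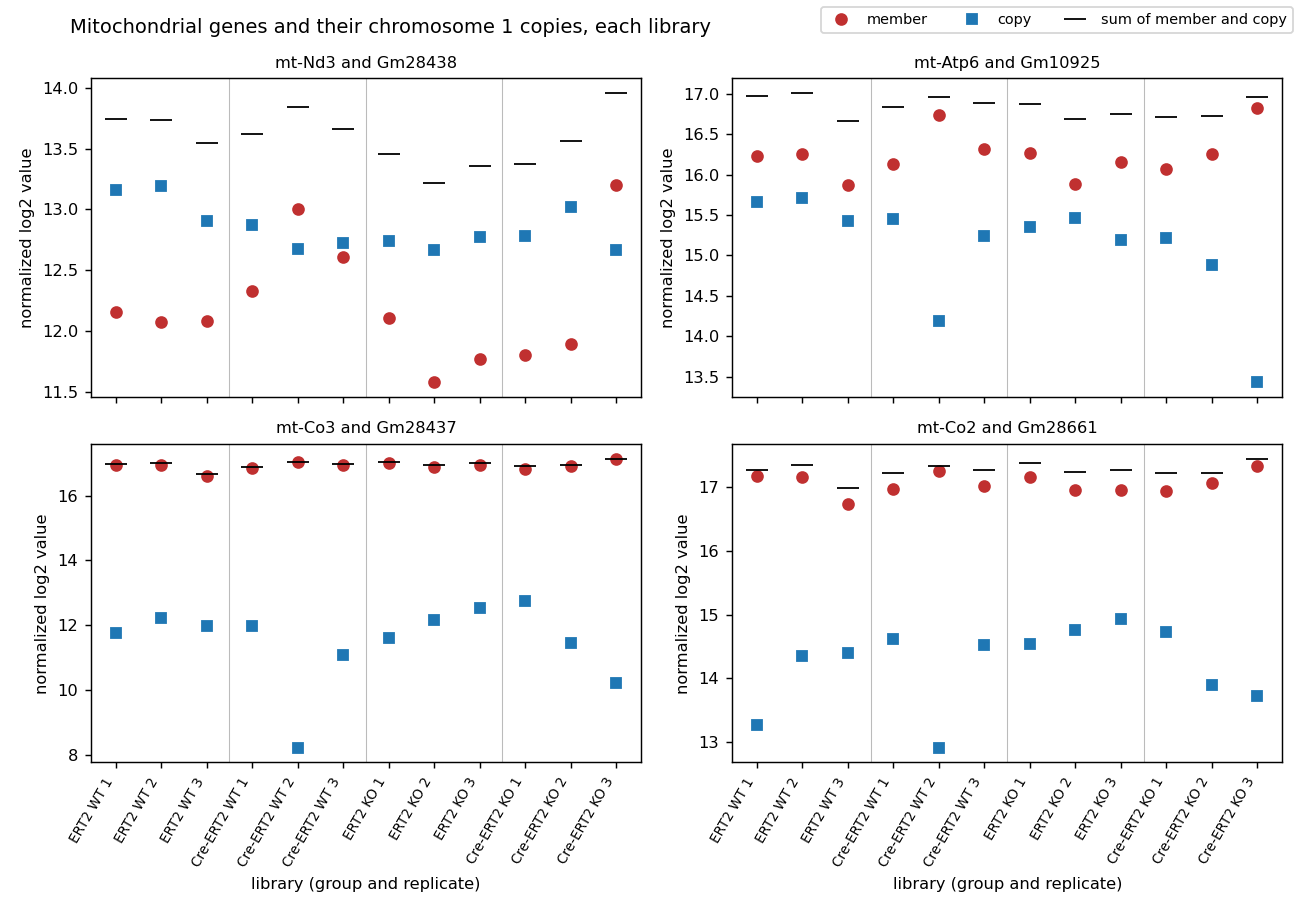
Normalized log2 values of 4 mitochondrial genes (circles), their copies on chromosome 1 (squares) and the sum of both (bars) in each of the 12 libraries. In Cre-ERT2 WT replicate 2 and Cre-ERT2 KO replicate 3, Gm10925 lies at 14.19 and 13.43 and mt-Atp6 at 16.74 and 16.83.

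Promoter windows were available for 73 of the 85 nuclear members in RefSeq (GRCm38.p6), from 250 bases before to 50 after the start. Each was searched on both strands for exact matches to 6 short motifs. The core of the NRF1 motif (GCGCATG), named for a regulator of respiratory genes, was present in 15 windows, or 20.5%, against 4.04% of all 27025 windows and 7.59% of the 9056 windows of genes in the table. A YY1 motif (AAGATGG) was present in 11 (15.1%, against 6.48% and 7.83%), and an ETS or GABP motif (CCGGAAG) in 16 (21.9%, against 9.12% and 19.9%). The Ikaros motif (TGGGAA) was present in 15 windows (20.5%, against 25.5% and 22.6%), the TCF/LEF motif (CTTTGA) in 6 (8.22%, against 16.2% and 11.9%) and the E-box (CACGTG) in 7 (9.59%, against 7.24% and 10.5%). The E-box is its own reverse complement, and the NRF1 core can overlap itself on the opposite strand. A match is a string of letters and does not show that a factor binds.

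The 5 windows printed here belong to members described above and were chosen after their values were seen. Atp5g1 fell in WT cells upon Cre activation, Ndufa11, Sdhb and Uqcrh fell in KO cells and Ndufv1 rose. Each runs 5′ to 3′ along the strand of its gene, from 180 bases before to 30 after the RefSeq start, with capitals for matches of the searched motifs. In GRCm38.p6 they lie at chr11:96075602-96075811 (minus strand) for Atp5g1, chr17:56717582-56717791 (plus) for Ndufa11, chr4:140961091-140961300 (plus) for Sdhb, chr4:116075041-116075250 (minus) for Uqcrh and chr19:4012726-4012935 (minus) for Ndufv1. The capitals are an E-box in Atp5g1, overlapping NRF1 cores on both strands in Ndufa11, an NRF1 core and an ETS or GABP motif in Sdhb, an ETS or GABP motif in Uqcrh, and an E-box and a TCF/LEF motif in Ndufv1.
Atp5g1: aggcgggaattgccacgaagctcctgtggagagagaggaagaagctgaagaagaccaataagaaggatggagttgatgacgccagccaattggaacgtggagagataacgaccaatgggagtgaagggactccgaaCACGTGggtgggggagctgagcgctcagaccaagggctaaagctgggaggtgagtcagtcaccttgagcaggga
Ndufa11: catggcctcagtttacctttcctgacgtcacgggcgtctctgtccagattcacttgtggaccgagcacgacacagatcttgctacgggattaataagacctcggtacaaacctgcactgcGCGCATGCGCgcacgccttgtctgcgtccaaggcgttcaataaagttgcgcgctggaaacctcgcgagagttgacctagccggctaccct
Sdhb: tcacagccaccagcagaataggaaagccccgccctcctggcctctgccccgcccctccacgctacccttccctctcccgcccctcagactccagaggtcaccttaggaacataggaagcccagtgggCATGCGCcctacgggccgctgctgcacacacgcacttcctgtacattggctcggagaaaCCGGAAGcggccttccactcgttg
Uqcrh: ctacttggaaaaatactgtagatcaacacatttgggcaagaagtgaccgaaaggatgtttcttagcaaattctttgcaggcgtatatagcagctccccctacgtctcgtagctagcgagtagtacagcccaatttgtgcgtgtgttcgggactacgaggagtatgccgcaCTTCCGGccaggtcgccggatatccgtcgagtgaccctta
Ndufv1: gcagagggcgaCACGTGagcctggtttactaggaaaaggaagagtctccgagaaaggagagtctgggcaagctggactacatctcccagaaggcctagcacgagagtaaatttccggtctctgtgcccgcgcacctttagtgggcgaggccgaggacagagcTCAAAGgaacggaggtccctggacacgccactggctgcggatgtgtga

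Genes around the respiratory chain were followed in 5 further lists. Of 25 genes of the tricarboxylic acid cycle and pyruvate dehydrogenase in the table (27 listed), 16 were higher and 4 lower in ERT2 and 19 and 4 in Cre-ERT2 KO cells, or 80% and 92% called, with medians of 0.13 and 0.17. Over all genes 59.0% and 58.9% were called, with 29.8% and 30.4% of all genes higher. Idh2, the mitochondrial isocitrate dehydrogenase, rose by 0.91 and 0.85, Pdk1, which inhibits pyruvate dehydrogenase, by 0.89 and 0.76, and Pdha1, a subunit of that enzyme, by 0.53 and 0.52. Mpc1, part of the mitochondrial pyruvate carrier, fell by 0.15 and 0.10. The rises of Idh2, Pdk1 and Pdha1 were larger than that of Ndufv3, the largest called rise among the oxidative phosphorylation genes.

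Of 16 electron carriers and subunits outside the naming rule (20 listed), 9 were higher and 1 lower in ERT2 and 10 and 1 in Cre-ERT2 KO cells (62.5% and 68.8% called). Etfb, which feeds electrons from fatty acid oxidation into the chain, rose by 0.43 and 0.38 and Coq9, needed for ubiquinone synthesis, by 0.27 in both. Coq10b, a ubiquinone-binding protein, fell by 0.24 and 0.29. Of 43 further assembly factors (48 listed), 15 were higher and 7 lower in ERT2 and 15 and 5 in Cre-ERT2 cells, or 51.2% and 46.5% called, below the 59.0% and 58.9% of all genes. Nubpl, which delivers iron-sulfur clusters to complex I, rose by 0.39 and 0.43 and Higd1a by 0.40 and 0.46, whereas Coa5 and Cox16, factors for complex IV, fell by 0.27 and 0.25 and by 0.25 and 0.19.

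Of 32 genes for replication and expression of mitochondrial DNA (34 listed), 14 were higher and 2 lower in ERT2 and 15 and 4 in Cre-ERT2 KO cells, or 50% and 59.4% called, no more than about the share of all genes (59.0% and 58.9%). Pnpt1, an RNA-degrading enzyme of mitochondria, rose by 0.35 and 0.36, and the translation factors Gfm2 and Mtif2 rose by 0.34 and 0.35 and by 0.34 and 0.29. Fastkd5, which takes part in the processing of mitochondrial RNA, fell by 0.20 and 0.12. Of 12 nuclear regulators, 3 were higher and 4 lower in ERT2 and 3 and 5 in Cre-ERT2 cells (58.3% and 66.7% called). Nfe2l2, a regulator of the oxidative stress response, fell by 0.48 and 0.35, and Gabpb2 by 0.19 and 0.22, while Hif1a, a regulator of the response to low oxygen, rose by 0.25 and 0.14.

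Upon β-catenin stabilization in WT cells the share called was 12.5% of the carriers, 2.33% of the assembly factors, 15.6% of the genes of mitochondrial DNA expression, 16.7% of the regulators and 20% of the tricarboxylic acid list, where 11.9% of all genes were called. In KO cells it was 6.25%, 0%, 9.38%, 0% and 24%, in the same order, where 12.6% of all genes were called. In WT cells 0 of the 16 carriers rose and 2 fell, among them Cyc1, the cytochrome c1 of complex III, by 0.18 (SE 0.040, limma adjusted p 0.0122). Of the 32 genes of mitochondrial DNA expression 0 rose and 5 fell, led by Tsfm and Supv3l1 (each by 0.12), and of the 12 regulators 0 rose and Nfe2l2 (0.19) and Pprc1 (0.18), a coactivator of respiratory genes, fell. In the tricarboxylic acid list 2 rose, with Pdk1 at 0.22, and 3 fell, and of the 43 assembly factors 1 fell. In KO cells the 5 lists held 4 higher calls, all in the tricarboxylic acid list and led by Fh1 at 0.13, and 6 lower ones, led by Pcx at -0.23. For the difference between the effects, Coa6 and Ogdh were called, at 0.17 and 0.12 (limma adjusted p 0.0422 and 0.0388).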

How the data were processed

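Polyadenylated RNA was sequenced in 12 libraries (280 ng of RNA each, KAPA stranded kit). The deposited table holds log2 values per gene that the authors normalized between libraries. The submitters' processing notes name Salmon 1.4.0, STAR 2.7.6 and DESeq2 1.30.1, and the build is mm10 (GRCm38). The transformation and filters behind the values are not given in the sources used here, and without counts the depth is unknown. Compression of low values would understate changes. The protocol's day 1 after 4-OHT is worded for chromatin work.

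Linear models with 4 group means were fitted to all 12151 genes with limma 3.58.1 (R 4.3.3, mean-dependent prior, 8 residual degrees of freedom, Benjamini-Hochberg adjustment) and tested on simulated data. An exact permutation test of 3 against 3 libraries cannot go below 0.1 (2-sided). Shares were taken of the summed unlogged values. Copies were sought with blastn (at least 95% identity over at least 80% of the coding sequence). Positions and lengths came from GENCODE vM21 and promoters from RefSeq.

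The members and lists were chosen with earlier results of these data known, and classes and roles were assigned after values were seen. Named are the 13 mitochondrial genes, isoform groups, Sdha to Sdhd, and per comparison the 5 largest rises and falls among called members and the largest of each class. Of the further lists, the 3 largest rises and falls qualified. Alternatives covered scaling, pseudocount, expression filter, prior, threshold, libraries used, replicate block and single libraries left out. The values of 1 member that met the rule are not reported here.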

Additional observations from a re-analysis of the deposited data

Results flagged for a closer look

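The β-catenin effect on Uqcrb differed between the backgrounds by 0.14 on the log2 scale (SE 0.035, limma adjusted p 0.0393, 3 libraries per group), which a test of the difference itself brought out. The effect was 0.10 in KO cells (called) and -0.04 in WT cells (not called). Each group has 3 samples, too few for a check of single samples against the others of their group. Fits that left out a single library lost the call in most cases, as given above, and so did median centering.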

How the results depend on the processing

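The number of members called for the β-catenin effect in WT cells (4) became 7 under quantile normalization and 1 at an adjusted p under 0.01. That in KO cells (9) became 3 in a fit to the 6 KO libraries, 2 at an adjusted p under 0.01 and 5 without Cre-ERT2 WT replicate 2 and Cre-ERT2 KO replicate 3. The 1 call for the difference between the effects became 0 with centered libraries, with a robust prior, at an adjusted p under 0.01, with the replicate block and without those 2 libraries. Leaving out 1 library gave 1 to 7, 3 to 9 and 0 to 2 calls in these comparisons, 45 to 54 for KO against WT in ERT2 and 36 to 46 in Cre-ERT2 cells. The mitochondrial share then ran from 4.84 to 5.38% in ERT2 WT, 5.14 to 5.47% in Cre-ERT2 WT, 4.99 to 5.26% in ERT2 KO and 5.02 to 5.42% in Cre-ERT2 KO libraries. Replicate numbers did not pair the samples throughout (4 of 18 same-numbered pairs with a correlation of deviations over 0.1, range -0.12 to 0.33). Between ERT2 KO and Cre-ERT2 KO libraries, however, the 3 same-numbered pairs had correlations of 0.13, 0.16 and 0.095. With the replicate block 4, 7, 50, 42 and 0 members were called. Over the 1669 refits of the 67 calls of named genes, 0 changed sign and 173 lost the call. The alternatives that centered mitochondrial genes, summed copies, removed a length and GC trend or left out those 2 libraries were chosen after seeing the data. Where no value above bears on it, the cause of a lost call was not tested.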

Other observations

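Ndufa9, a complex I subunit at the joint of its arms, was chosen here for its spread after its values were seen. It read 8.42, 8.81 and 9.15 in ERT2 WT, 8.77, 9.17 and 9.15 in Cre-ERT2 WT, 9.13, 8.99 and 8.94 in ERT2 KO and 8.27, 8.89 and 8.74 in Cre-ERT2 KO libraries. Its β-catenin effect differed between KO and WT cells by -0.62 (SE 0.26), the largest difference among the 98 members. This difference was not called (limma adjusted p 0.230). Values of ERT2 and Cre-ERT2 libraries overlapped in WT but not in KO cells, where the change of -0.38 was not called (limma adjusted p 0.214).

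Tfam and Polrmt, which pack and transcribe mitochondrial DNA and were named after their values were seen, rose in KO against WT cells of the ERT2 vector by 0.21 (SE 0.068, limma adjusted p 0.0197) and 0.30 (SE 0.062, limma adjusted p 0.00121). In Cre-ERT2 cells they differed by -0.01 and 0.05 and were not called. The difference between the vectors was not called for either gene.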
